A study of Mus musculus with 6 samples.

Results

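The mu class of glutathione transferases was examined in jejunal epithelium of mice in which a Musashi transgene had been switched on. Its 7 genes, Gstm1 to Gstm7, were found by their gene symbols among the rows of the array table that carry exactly 1 symbol. They were 7 of 19938 genes measured, and they occupied 8 rows, as Gstm3 had a second row. Where a gene had several rows, the row with the highest mean over the 6 arrays was taken, which for Gstm3 was a row with a mean of 10.39 against 9.82 for the other.

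Glutathione transferases join the tripeptide glutathione to electrophilic compounds, such as drug metabolites and products of lipid peroxidation, so that these can be exported from the cell. The mu class is one of several classes of soluble enzymes of this kind, works as dimers and is encoded by a cluster of similar genes. In the intestinal lining these enzymes belong to the defence against compounds taken up with food, and several members are known to respond to the stress-sensing factor Nrf2 and to receptors for foreign compounds.

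RNA of total epithelial cell preparations from the jejunum was hybridised to whole-transcript gene arrays, 3 arrays from control and 3 from transgenic mice. Controls carried R26-M2rtTA, in which the R26 locus, active in most cell types, drives an activator that needs doxycycline. The transgenic mice carried R26-M2rtTA together with a TRE-driven transgene, which the series text names TRE-Msi1 and the genotype label names TRE-MSI2. All mice drank doxycycline for 24 h, so both groups share the drug and the activator, and there was no group without doxycycline. The labels state neither age nor sex.

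The signal of Msi1 rose from 6.94 ± 0.09 to 12.60 ± 0.09 (log2, mean ± SD, n = 3 each), while Msi2 was 8.64 ± 0.06 in controls and 8.22 ± 0.30 in transgenic arrays (difference -0.42, limma adjusted p = 0.168). Array medians lay close together, and the number of arrays limits the precision of every difference. Transgenic replicate 1 correlated with the other arrays across genes at 0.922 to 0.951, against 0.995 to 0.996 among controls and 0.996 between transgenic replicates 2 and 3. Control replicate 1 also stood apart in the sex-linked genes. Its Xist signal was 5.32 against 11.25 to 11.54 on the other 5 arrays, and its Y-linked Eif2s3y, Kdm5d and Uty signals were 9.17, 7.13 and 8.63 against at most 3.42, 4.14 and 3.89 elsewhere. Results below are therefore also given without these arrays.

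Of the 7 mu class genes, 6 fell and 0 rose at a limma adjusted p under 0.05, where 5.84% of all genes tested passed as lower and 6.04% as higher. The falls ran from 0.65 to 3.37 on the log2 scale, and the median over the 7 members was -1.75, against -0.04 over all genes. For these 6 members every transgenic array lay below every control array, and 34.2% of all genes had no overlap between groups in either direction. Gstm5 was the exception and did not pass. The family was chosen by these same signals, as a group of genes with differences between these transgenic and control arrays, so nothing is read from these shares against those of all genes, and the adjusted p-values below place each gene among all genes tested without being independent evidence. With 3 arrays a group, the lowest p that exact permutation (two-sided) can reach is 0.1.

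**Figure D1:**
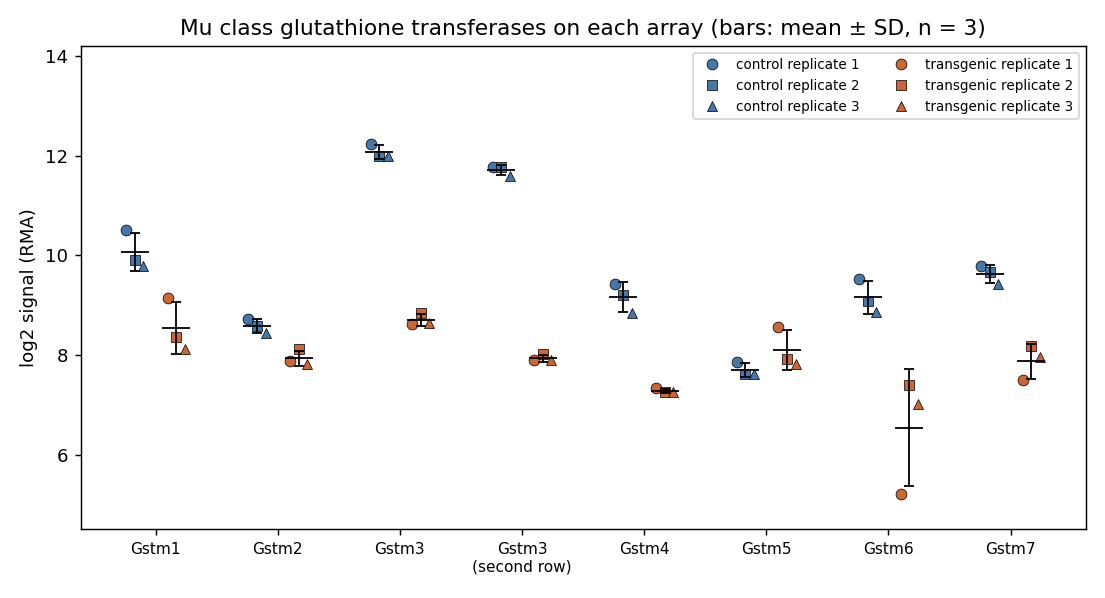
Log2 signal of each mu class gene (horizontal axis) on each of the 6 arrays, with blue points for control and orange points for transgenic arrays, symbols for replicates, and bars for mean ± SD (n = 3). For Gstm3 the transgenic arrays sit near 8.71 and the controls near 12.07, whereas Gstm5 is the gene whose groups overlap; heights of different genes come from different probes and are not comparable levels.

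Gstm3 showed the largest fall of the family. Its signal was 12.23, 12.00 and 11.99 on control replicates 1 to 3 and 8.63, 8.84 and 8.65 on transgenic replicates 1 to 3. The transgenic arrays lay tightly together, 3.14 log2 units below the lowest control. The difference was -3.37 (SE 0.109, limma adjusted p = 2.24e-04), or 10.3-fold lower, and it ranked at position 7 among all genes ordered from the largest fall. The control signal stood at percentile 99.3 of all genes on this scale and the transgenic signal at percentile 77.9, which places the transgenic arrays well within the range of measured signals. The second row of Gstm3 gave 11.77, 11.77 and 11.59 in controls and 7.89, 8.01 and 7.90 in transgenic arrays. It differed by -3.78 (SE 0.0916, limma adjusted p = 9.87e-05 over all rows), so both rows of the gene gave a drop of similar size. The numeric identifier of the brighter row (10362511) lies outside the run that holds the second row (10501218) and the rows of Gstm1, Gstm2, Gstm4, Gstm6 and Gstm7 (10501199 to 10501235), and the position of the brighter row's probes was not used here.

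Gstm4 and Gstm7 fell by similar amounts. Gstm4 had 9.43, 9.21 and 8.84 on the controls and 7.33, 7.25 and 7.26 on the transgenic arrays, whose spread (SD 0.05) was smaller than that of the controls (SD 0.30). The difference was -1.88 (SE 0.157, limma adjusted p = 0.00224), a 3.68-fold fall. Gstm7 had 9.78, 9.66 and 9.43 on the controls and 7.49, 8.18 and 7.95 on the transgenic arrays, with the lowest value on transgenic replicate 1. It differed by -1.75 (SE 0.196, limma adjusted p = 0.00501), a 3.36-fold fall.

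Gstm1, a major form of the class in liver, had 10.50, 9.91 and 9.78 on the controls and 9.14, 8.37 and 8.12 on the transgenic arrays. The groups did not overlap, but they were only 0.64 apart at their nearest points, between control replicate 3 and transgenic replicate 1. The difference was -1.52 (SE 0.313, limma adjusted p = 0.0301), or -1.82 without transgenic replicate 1. Gstm2 moved least among the members that fell, from 8.73, 8.57 and 8.45 to 7.88, 8.11 and 7.82. Its difference of -0.65 (SE 0.118, limma adjusted p = 0.0215) amounts to 1.57-fold.

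Gstm6 varied most among the transgenic arrays. Its controls were 9.52, 9.09 and 8.86, transgenic replicates 2 and 3 were 7.40 and 7.02, and transgenic replicate 1 was 5.20. The difference over all arrays was -2.62 (SE 0.571, limma adjusted p = 0.0361), a 6.14-fold fall, and -1.95 or 3.86-fold when transgenic replicate 1 was left out (adjusted p = 1.61e-04). On transgenic replicates 2 and 3 the member farthest below its control mean was Gstm3 (-3.23 and -3.43), and on transgenic replicate 1 it was Gstm6 (-3.95, against -3.45 for Gstm3).

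Gstm5 did not share the fall. It had 7.86, 7.62 and 7.61 on the controls and 8.57, 7.92 and 7.82 on the transgenic arrays, so that control replicate 1 lay within the transgenic range. The difference was 0.40 (SE 0.212, limma adjusted p = 0.32; exact permutation p = 0.2), and 0.17 without transgenic replicate 1 (adjusted p = 0.302). As background, Gstm5 is best known from brain and testis.

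The members also differed in how transgenic replicate 1 compared with the other transgenic arrays. Relative to the control mean, Gstm1 was at -0.93 on transgenic replicate 1 and at -1.82 on the mean of replicates 2 and 3. Gstm6 showed the opposite order, with -3.95 and -1.95, and Gstm7 likewise with -2.13 and -1.56. For Gstm3 (-3.45 and -3.33), Gstm4 (-1.83 and -1.91) and Gstm2 (-0.70 and -0.62) transgenic replicate 1 lay close to that mean. For Gstm2 the mean covers -0.47 on transgenic replicate 2 and -0.76 on transgenic replicate 3.

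Among the controls, the brightest rows of all 7 members had the same order, with control replicate 1 highest and control replicate 3 lowest. The difference between those arrays ran from 0.24 for Gstm3 to 0.72 for Gstm1, against a median of 0.03 over all genes, of which 16.7% had this order. The second Gstm3 row did not follow it, as control replicates 1 and 2 were equal to 2 decimals. Control replicate 1 is the array with the Y-linked signal described above, and the part of sex in this order was not tested.

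When single arrays were dropped, Gstm3, Gstm4 and Gstm7 passed in 6 of 6 cases, with highest adjusted p of 0.0055, 0.0222 and 0.0363. Without control replicate 1 these were 3 of 7 members called, where 1.63% of all genes passed as lower and 1.80% as higher (3.43% in all), and their differences were -3.29, -1.74 and -1.67. Gstm1, Gstm2 and Gstm6 lost the call without control replicate 1 (-1.30, -0.57 and -2.44, adjusted p = 0.111, 0.0979 and 0.143), and also without control replicate 2, control replicate 3 or transgenic replicate 3. Gstm1 lost it without transgenic replicate 2 as well (adjusted p = 0.1). Here and below, a call is said to depend on, rest on or need an array when it was lost without it. Over all genes, 683 passed without control replicate 1, against 2368 with all 6 arrays. A lost call therefore does not show that the difference came from the dropped array. Leaving out transgenic replicate 1 kept all 6 falls, where 28.6% of all genes passed, 14.5% as lower and 14.0% as higher. With control replicate 1 and transgenic replicate 1 both left out, a choice made after the data were seen, the 6 members also passed (22.9% of all genes passed, 11.3% as lower and 11.6% as higher), and Gstm3 differed by -3.25 and Gstm1 by -1.60.

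**Figure D2:**
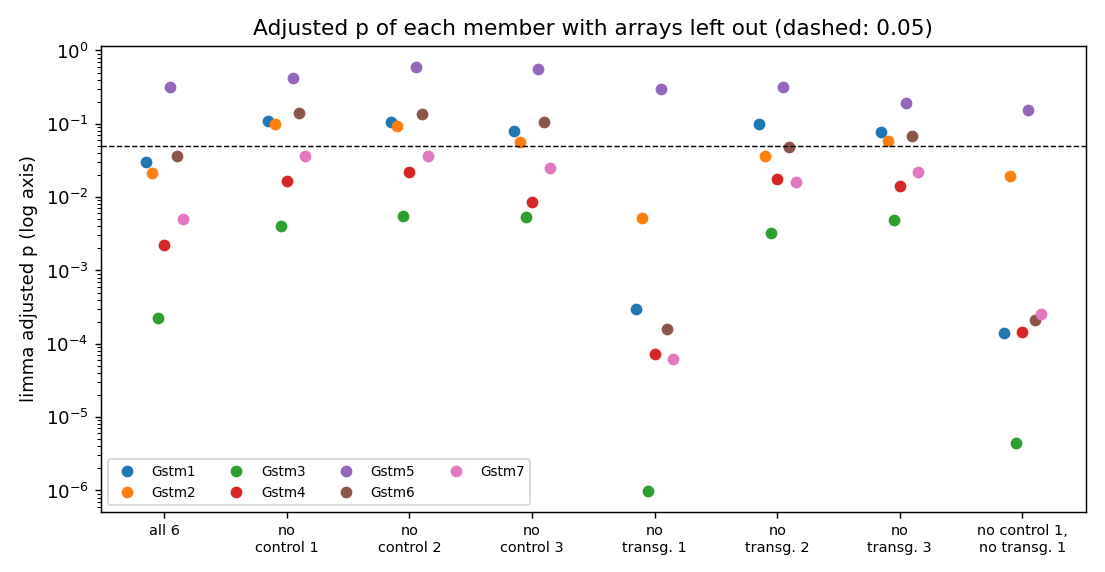
Limma adjusted p of each mu class gene (vertical log axis) with all 6 arrays and with the named arrays left out (horizontal axis), 1 colour per gene, with a dashed line at 0.05. Gstm3, Gstm4 and Gstm7 stay below the line in every column, Gstm5 stays above it, and Gstm1, Gstm2 and Gstm6 cross it.

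Mu class genes resemble each other in sequence, and the letters of the probes were not used here, so signal shared between the rows of different members was not tested. RNA of a whole preparation cannot tell fewer cells of a type from less RNA per cell.

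The 7 genes form 1 block on mouse chromosome 3 in the RefSeq annotation of GRCm38.p6, in the order Gstm5, Gstm7, Gstm6, Gstm3, Gstm2, Gstm1 and Gstm4. Gstm5 lies at the edge of the block and on the plus strand, and the other 6 lie on the minus strand. The annotation also places Gm9515 between Gstm5 and Gstm7, Gm12497 between Gstm3 and Gstm2, and Gm12502 between Gstm1 and Gstm4, and these were not among the genes tested. Of the 16 nearest measured genes outside the block, 8 on either side, 0 rose and 2 fell, with a median of -0.07. Over all genes, 6.04% rose and 5.84% fell. Ahcyl1, which encodes a regulator of inositol trisphosphate receptors, differed by -0.51 (limma adjusted p = 0.0319), and Sypl2 by -0.67 (adjusted p = 0.0124). Dropping any control ended both calls (for Ahcyl1 also dropping transgenic replicate 2 or 3), with adjusted p up to 0.142 and 0.0742. Without transgenic replicate 1, 4 neighbours rose and 2 fell, where 14.0% of all genes rose and 14.5% fell. Ampd2, an AMP deaminase and the gene next to Gstm4, differed by 0.58 and did not pass, and the lncRNA 4933431E20Rik next to Gstm5 differed by 0.17 and did not pass.

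**Figure D3:**
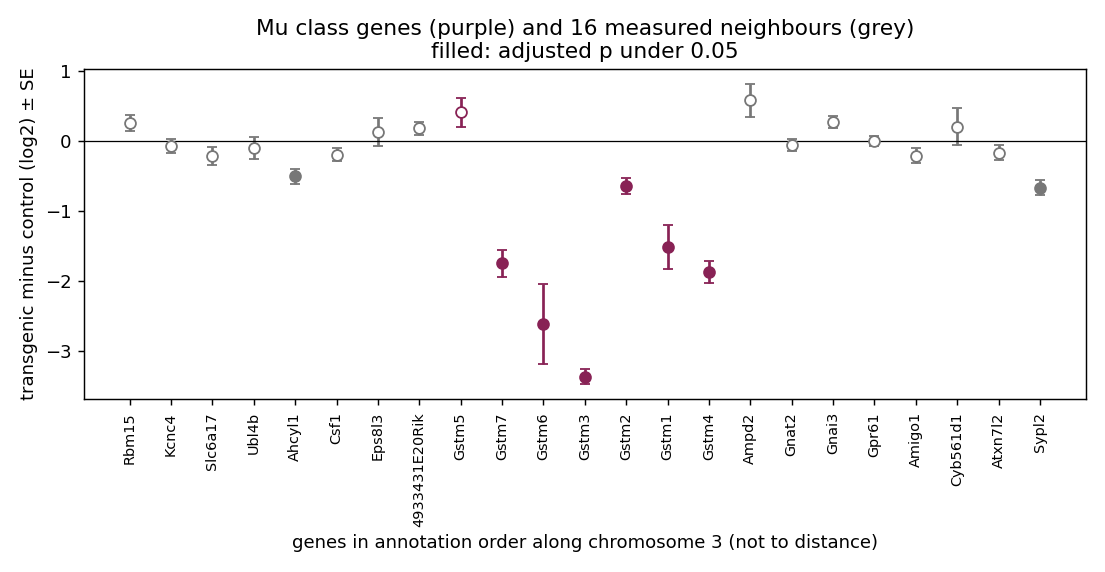
Difference between transgenic and control arrays (log2, ± SE) for the mu class genes in purple and 16 measured neighbours in grey, in annotation order along chromosome 3 and not to distance. Filled points passed an adjusted p of 0.05. The run from Gstm7 to Gstm4 lies below 0 while Gstm5 and the genes outside lie between -0.67 and 0.58. The Gstm3 point comes from the brighter row, whose probe position was not used. The second row, numbered among those of the other members, differed by -3.78.

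The bases before the annotated transcription start were read from RefSeq promoter windows of GRCm38.p6, which held all 7 members in 12 windows. The 250 bases upstream are shown for the member that fell most, the called member that fell least and the member that did not pass. They are Gstm3 (chr3:107969175-107969424, minus strand), Gstm2 (chr3:107986421-107986670, minus strand) and Gstm5 (chr3:107895604-107895853, plus strand, where it overlaps the lncRNA 4933431E20Rik). Each is written 5′ to 3′ in the direction of its gene, with capitals for matches to the motifs named after them.
Gstm3: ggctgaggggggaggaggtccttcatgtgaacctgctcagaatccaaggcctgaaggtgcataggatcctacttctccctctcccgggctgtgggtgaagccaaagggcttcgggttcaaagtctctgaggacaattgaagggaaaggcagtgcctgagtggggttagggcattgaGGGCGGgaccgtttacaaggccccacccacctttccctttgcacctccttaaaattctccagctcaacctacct
Gstm2: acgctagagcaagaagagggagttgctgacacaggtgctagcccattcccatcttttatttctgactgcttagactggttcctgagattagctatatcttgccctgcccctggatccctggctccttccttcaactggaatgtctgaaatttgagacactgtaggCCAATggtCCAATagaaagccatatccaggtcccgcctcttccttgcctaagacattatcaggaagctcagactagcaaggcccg
Gstm5: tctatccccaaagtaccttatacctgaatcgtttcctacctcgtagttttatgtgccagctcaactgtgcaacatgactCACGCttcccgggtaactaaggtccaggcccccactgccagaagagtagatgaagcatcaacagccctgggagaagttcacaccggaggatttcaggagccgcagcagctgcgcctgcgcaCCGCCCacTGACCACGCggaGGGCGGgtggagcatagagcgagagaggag
Both strands were searched. The antioxidant response element core, TGACNNNGC, through which Nrf2 acts, matched 10.2% of all 32851 windows of this length and 2 of the 12 member windows, in Gstm5 and Gstm7. In Gstm5 the match is TGACCACGC, and it overlaps a match to the core bound by the aryl hydrocarbon receptor. That core, with the letters GCGTG, matched 28.2% of all windows and 3 member windows, in Gstm1 and Gstm5. The CCAAT box (letters CCAAT) matched 33.8% of all windows and 10 member windows, in every member except Gstm3 and Gstm5, and the GC box GGGCGG matched 32.7% and 5 member windows. TATAAA matched 12.4% of all windows and 2 member windows, in Gstm1 and Gstm7, while the E-box CACGTG (6.02% of all windows) and the nuclear receptor motif AGGTCA (14%) had 0 member windows. Gstm1, Gstm4, Gstm6 and Gstm7 have several starts and so several windows, and those of Gstm1, Gstm4 and Gstm7 overlap each other. All windows of Gstm4, Gstm6 and Gstm7, and a window of Gstm1, also lie at least partly within the annotated span of their own gene. Some of the matches may therefore lie in transcribed or coding sequence. For these reasons nothing is read from the member counts against the shares of all windows.

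Other glutathione transferases were then read from the same fit. For all list counts below, 5.84% of all genes passed as lower and 6.04% as higher with all 6 arrays. Without transgenic replicate 1 these shares were 14.5% and 14.0%, and without control replicate 1 they were 1.63% and 1.80%. Whether any list differs from these shares was not tested. Of 13 measured soluble and mitochondrial enzymes of other classes, 4 fell and 0 rose, with a median of -0.32. Gstz1, which also acts in tyrosine breakdown, fell from 8.78 to 6.27 on average (difference -2.50, limma adjusted p = 0.00192). Gstt2 of the theta class differed by -0.84 (adjusted p = 0.00677), Gstp1 of the pi class by -0.94 (0.0167) and Gstt1 by -1.53 (0.0479). Gstz1 and Gstt2 passed whichever array was dropped. Gstp1 and Gstt1 passed when transgenic replicate 1 was dropped and missed when any other was (adjusted p up to 0.0827 and 0.172), so that 2 of the 13 fell without control replicate 1. Gsta4 of the alpha class, active on lipid aldehydes, was not called at 0.47 (adjusted p = 0.206). Without transgenic replicate 1, 6 of these 13 genes fell and 1 rose, which was Gsta4 (0.58, limma adjusted p = 0.0431).

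Among 6 membrane-bound relatives 1 fell and 0 rose. Mgst3 differed by -1.39 (limma adjusted p = 0.005), also with each array left out, and Mgst1 by 0.11 (adjusted p = 0.69). Without transgenic replicate 1, 2 fell.

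Glutathione, the substrate of these enzymes, is made and recycled by a further group of genes. Of 16 measured, 5 rose and 1 fell, with a median of 0.35. Gclc, the catalytic subunit of the enzyme that limits glutathione synthesis, rose by 1.75 (SE 0.122, limma adjusted p = 0.00158), and Ggct, which breaks down gamma-glutamyl peptides, rose by 0.92 (adjusted p = 0.00362). Both kept the call with each array left out. Gss, the second enzyme of synthesis, rose by 0.61 (adjusted p = 0.0162), and the cystine transporter Slc7a11 by 3.55 (0.028). Chac1, which degrades glutathione, rose by 1.17 (0.0489). Gclm, the modifier subunit that pairs with Gclc, differed by -0.59 (0.0319). The call of Gss ended when any control was dropped (up to 0.0767), as did those of Slc7a11 (also on dropping transgenic replicate 2, up to 0.111) and Gclm (also transgenic replicate 3, up to 0.138). Chac1 depended on replicates 2 and 3 of both groups (up to 0.183). Without control replicate 1, 3 of the 16 rose and 0 fell.

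Export pumps and the steps that turn conjugates into mercapturic acids showed 1 rise and 1 fall among 10 measured genes. Abcc3, a pump for conjugates, differed by -1.27 (limma adjusted p = 0.00343), and Abcc5 by 0.68 (0.00856), both with each array left out. The apical pump Abcc2 was at -1.09, short of a call (adjusted p = 0.102). Without transgenic replicate 1, 5 of the 10 fell, Abcc2 among them at -0.68. Among 13 peroxidases and other enzymes that use glutathione, Glo1 of the glyoxalase system rose by 0.64 (adjusted p = 0.0336) and 0 fell. Glo1 passed in 1 of the 6 drops, that of transgenic replicate 1, and otherwise reached up to 0.135. In that same drop 4 of the 13 fell, where 14.5% of all genes did.

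**Figure D4:**
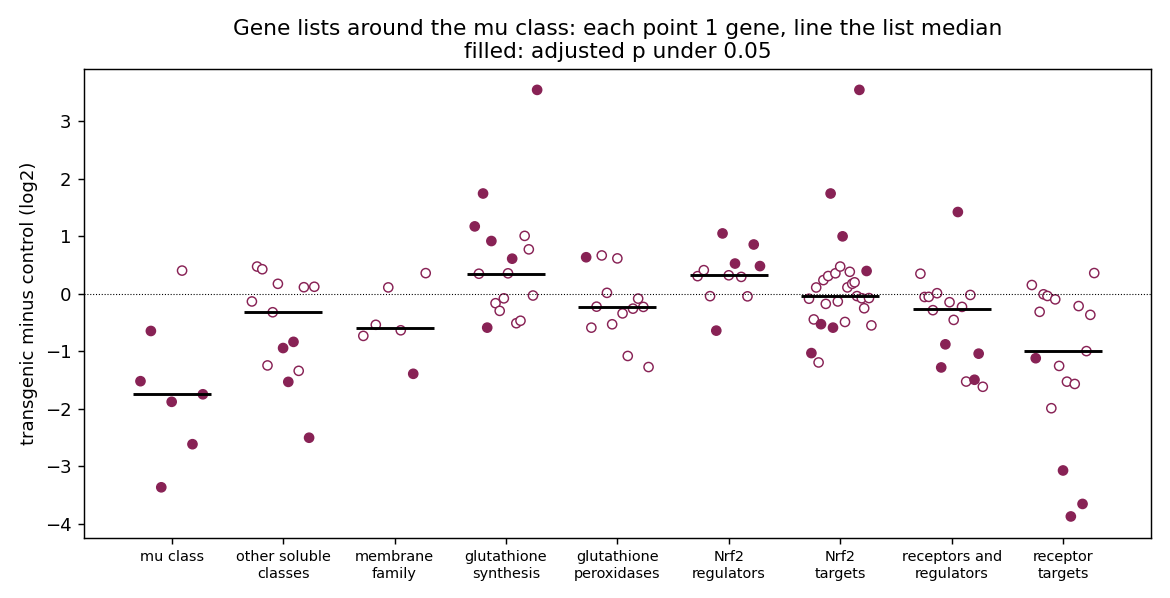
Difference between transgenic and control arrays (log2) for each gene, 1 point a gene, in the mu class and in 8 related gene lists, with filled points for an adjusted p under 0.05 and a line at each list's median. The mu class has a median of -1.75, glutathione synthesis one of 0.35 and the Nrf2 targets one of -0.04; some genes stand in more than 1 list.

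Nrf2 is held down by Keap1 and acts with small Maf proteins. Of 11 measured regulators, 4 rose and 1 fell. Nfe2l2, the gene of Nrf2 itself, was 11.39 in controls and 11.35 in transgenic arrays (difference -0.04, limma adjusted p = 0.84). Keap1 differed by -0.64 (adjusted p = 0.0196), Bach1, a repressor at the same sites, by 0.31 (0.158), and Maff by 1.05 (0.00624). Rbx1, Mafk and Sqstm1 rose by 0.86, 0.53 and 0.48. Maff passed in every drop of 1 array. Keap1 depended on control replicates 1 and 2 and transgenic replicates 2 and 3 (up to 0.0987), and Rbx1 on each control (up to 0.0858). Mafk and Sqstm1 depended on each of the 5 arrays other than transgenic replicate 1 (up to 0.0804 and 0.129). Over the drops their differences ran from 0.46 to 0.57 and from 0.44 to 0.57. Without control replicate 1, 1 regulator rose and 0 fell, and without transgenic replicate 1, 7 rose and 1 fell.

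Of 27 measured Nrf2 target genes outside the mu class, 4 rose and 3 fell, with a median of -0.04. Gclc, Slc7a11, Hmox1 (1.00, limma adjusted p = 0.00468) and Tkt (0.40, 0.0338) rose, and Gclm, Ephx1 (-0.53, 0.0184) and Blvrb (-1.03, 0.032) fell. Nqo1, a standard readout of Nrf2 activity, was not called at 0.38 (adjusted p = 0.27), and Txnrd1 by -0.07 (0.68), named for its role after its value was seen. Gclc and Hmox1 passed in every drop of 1 array. Tkt, Ephx1 and Blvrb depended on each of the same 5 arrays (up to 0.129, 0.0937 and 0.135). Without control replicate 1, 2 of the list rose and 0 fell, against 8 and 5 without transgenic replicate 1.

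Receptors for foreign compounds and related regulators showed 1 rise and 4 falls among 16 measured genes. The receptor genes Nr1i2 (PXR), Nr1i3 (CAR) and Ahr differed by -0.23, -1.53 and 0.35, and none of these passed (limma adjusted p = 0.83, 0.248 and 0.0839). Without transgenic replicate 1 Nr1i3 fell (-0.67, adjusted p = 0.00119) and Nr1i2 rose (0.33, 0.0401). Rxra, the partner of PXR and CAR, differed by -1.50 (0.0211), a call that each control was needed for (up to 0.0937). The bile acid receptor Nr1h4 rose by 1.42 (0.00196). Tef and Hlf, clock-controlled factors known to govern detoxification genes, fell (-1.04 and -0.88, adjusted p = 0.00279 and 0.00541), and Nr1h4, Tef and Hlf passed in every drop of 1 array. Their relative Dbp fell (-1.28, 0.00943), with a call that rested on control replicates 1 and 3 (up to 0.057). In the list, 1 rose and 2 fell without control replicate 1, and 2 rose and 7 fell without transgenic replicate 1. Of 17 measured targets of these receptors 4 fell and 0 rose, namely Cyp2c66 (-3.87, 0.00401), Cyp2c55 (-3.07, 0.0074), Alas1 (-1.12, 0.00499) and Cyp3a25 (-3.66, 0.0496). Cyp3a25 passed only in the drop of transgenic replicate 1, at -2.58, and reached up to 0.17 in the other 5. Without transgenic replicate 1, 6 targets fell.

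Markers of the cells in the preparation were read beside the family. The epithelial markers were high on all arrays, with means over 10 genes of 11.29 to 11.31 in controls and 11.09 to 11.26 in transgenic arrays, and 1 of them, Cdh1, rose (0 fell). Cdh1 passed in 1 of the 6 drops of an array, that of transgenic replicate 1 (adjusted p up to 0.161 otherwise). The 15 enterocyte markers had means of 12.27 to 12.36 in controls, 9.36 on transgenic replicate 1 and 11.84 to 11.90 on the other transgenic arrays, and 0 of 15 passed. The 9 T cell markers, which intraepithelial lymphocytes carry, had means of 7.80 to 8.05 in controls, 5.52 on transgenic replicate 1 and 7.43 on each of the other transgenic arrays, with 1 of 9 called (Cd8b1, lower), a call that each control was needed for (up to 0.0686). The 9 crypt markers had means of 9.06 to 9.24 in controls, 9.20 on transgenic replicate 1 and 8.23 to 8.26 on the others, with Olfm4 and Ascl2 lower (2 of 9). Olfm4 passed in every drop, and Ascl2 depended on control replicates 2 and 3 (up to 0.0733). Means over B cell, myeloid and endothelial markers lay between 5.43 and 6.45 on all arrays, and those over mesenchymal markers between 6.14 and 6.496. Of 12 myeloid markers Cd14 rose (1.06, limma adjusted p = 0.0119) and 0 fell, and of 12 mesenchymal markers Vim fell (-0.89, 0.0227) and 0 rose. Cd14 depended on control replicates 1 and 2 (up to 0.0652) and Vim on each control and transgenic replicate 2 (up to 0.101). None of the 7 B cell or 6 endothelial markers passed. Without transgenic replicate 1, 14.5% of all genes passed as lower and 14.0% as higher. Then 6 enterocyte, 6 T cell, 6 crypt, 4 myeloid, 3 epithelial (Vil1, Cdx1 and Cdx2) and 2 mesenchymal markers passed as lower. In that drop 1 enterocyte marker (Rbp2), 1 epithelial marker (Cdh1) and 2 myeloid markers passed as higher. When control replicate 1 was dropped, 2 crypt markers passed as lower and 0 markers of the other cell types passed. The part of cell composition in the mu class values was not tested.

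Genes outside the family were ranked by how closely their profile over the 6 arrays followed it, as the root mean square difference in log2 units after each gene's control mean was subtracted. Nearest to the mean profile of the 7 members were Nr1d2 (0.08), a nuclear receptor of the circadian clock, the phospholipase gene Pla2g6 (0.09), the integrin gene Itgb4 (0.10), Gas6 (0.11) and Hykk (0.11). Nearest to Gstm3 were Nr1d1 (0.22), the closest relative of Nr1d2, the crypt marker Olfm4 (0.24), H2-DMa (0.35), Cyp2s1 (0.36) and Cndp1 (0.38). For comparison, Gstm7, Gstm4 and Gstm1 lay 0.17, 0.22 and 0.37 from the family mean. Gstm2, Gstm6, Gstm3 and Gstm5 lay farther off, at 0.69, 0.94, 1.23 and 1.46. That mean includes Gstm5, which did not fall, so it is not the profile of most members. From Gstm3 the other members lay 0.83 (Gstm6) to 2.68 (Gstm5). The measure follows the size of a difference, so genes with a similar fall come out near. Nr1d1 was 11.17, 11.21 and 11.05 on the controls and 7.43, 7.51 and 7.56 on the transgenic arrays.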

How the data were processed

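The values were deposited by the authors on a log2 scale, 1 column per array, from 250 ng of RNA per the labels' protocols. The submitters' processing notes name RMA and Partek 6.5, their settings not given in the sources used here. Such processing gives all arrays nearly equal distributions and compresses low signals, so that changes of dim genes are understated. Rows were named by the platform annotation: of 35399 rows, 21789 had 1 symbol, 1621 several and 11989 none. For 999 genes with several rows the brightest was kept. RefSeq (GRCm38.p6) gave gene order and promoter sequences, and no probe coordinates were used.

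Differences, transgenic minus control, were fitted with limma 3.58.1 in R 4.3.3 (lmFit, eBayes) and adjusted by Benjamini-Hochberg over 19938 genes, with a call at an adjusted p under 0.05. The fit was tried on simulated data with independent noise for each gene and no outlying array. Such data do not cover arrays that stand apart over many genes, as transgenic replicate 1 does here. Replicates are those of the sample titles, which call them biological replicates. Named were all members, up to 4 genes per list by smallest p with regulators by role, and the 5 nearest profiles. A few further list genes were named by their role after their values were seen. The members and lists were chosen with earlier results of these data known. Deviations of arrays with the same title number correlated at -0.07, -0.17 and -0.12. These are deviations from means of 3 arrays, and transgenic replicate 1 stands apart, so they cannot decide whether arrays were paired. Replicates 2 and 3 of the titles also share their description number across the groups, and replicate 1 does not.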

Additional observations from a re-analysis of the deposited data

How the results depend on the processing

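Of 119 values of single members under the alternatives, 103 stayed on their side of the threshold, 16 lost the call and 0 changed direction. The 119 include a looser threshold of 0.1 on the same fit, where no call could be lost. They also include the block by description number described below. Neither of these alternatives bears on how stable the calls are. With the replicate number of the titles as a block, 4 members passed (6 without it), Gstm2 and Gstm6 missing at limma adjusted p = 0.0715 and 0.0792. In that fit 733 genes passed (384 higher, 349 lower). Whether the arrays were paired in this way could not be decided. With the description number as a replicate block, 1 residual degree of freedom was left and every gene received the same error, so the 4019 calls (2056 higher, 1963 lower) are given as counts only. Array weights gave 5770 (2846 higher, 2924 lower). Without control replicate 1 and transgenic replicate 1 there were 4573 calls (2317 higher, 2256 lower), with 6 members lower. Leaving out 1 array gave 683 to 5700 calls over all genes, 359 to 2800 higher and 324 to 2900 lower, and 3 to 6 members called, all of them lower. With all rows tested Gstm6 missed (adjusted p = 0.054) and 5 members passed.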

Other observations

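Clock genes moved in both directions. Among them were Nr1d2, nearest to the mean profile of the members, and Nr1d1, nearest to Gstm3. Of 16 measured, 4 rose and 6 fell, with a median of 0.10. The repressor Cry1 rose by 1.75 (limma adjusted p = 0.0043) and Nfil3, which opposes Dbp, Tef and Hlf at their sites, by 2.09 (0.00364). Nr1d1 (-3.64, 5.15e-05) and Nr1d2 (-1.74, 0.00222) fell, and these 4 passed whichever array was dropped. Clock and Ciart also rose, and Per3, Dbp, Tef and Hlf also fell. Of these, Clock passed in 1 of the 6 drops, that of transgenic replicate 1 (adjusted p up to 0.158 otherwise). Ciart depended on each control and on transgenic replicate 2 (up to 0.122), and Per3 and Dbp on control replicates 1 and 3 (up to 0.0604 and 0.057). Without control replicate 1, 2 clock genes rose and 4 fell, and without transgenic replicate 1, 6 rose and 6 fell, with Arntl (0.82) and Cry2 (1.93) then among those that rose. The labels give no hour of collection, and its part in these differences was not tested.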
